A study of Mus musculus with 6 samples.

Results

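The genes described are the 4 ligand genes (Pdgfa, Pdgfb, Pdgfc and Pdgfd) and the 2 receptor genes (Pdgfra and Pdgfrb) of the platelet-derived growth factor (PDGF) family, 6 of 19938 genes with a signal. They were chosen by symbol, as array rows annotated to exactly 1 of these names. Each name matched 1 row, and no row joined a PDGF symbol with another gene. The tissue was gut from mouse embryos at E14.5, before villi form, dissected about 1.5 cm anterior to the cecum. The Klf5-deleted embryos have the genotype Klf5D/D, a deletion of the epithelial transcription factor gene Klf5, and their label names no Cre allele. The control embryos are Klf5wt/wtShhEGFP/Cre+, that is, wild-type for Klf5 and carrying Cre knocked into the locus of Shh, a gene active in gut epithelium. Both groups are of mixed strain (part C57Bl/6), and each had 3 arrays, each array holding RNA from a pool of 2 intestines.

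PDGF proteins are dimeric growth factors that act through a pair of receptor tyrosine kinases. Receptor alpha binds PDGF-A, PDGF-B and PDGF-C chains, and receptor beta binds PDGF-B and PDGF-D. In the fetal intestine PDGF-A is made by the epithelium, and the underlying mesenchymal cells that carry receptor alpha gather into clusters beneath the emerging villi. In vessels, endothelial PDGF-B recruits pericytes that carry receptor beta.

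The 250 bases before the annotated start of the 3 genes that passed the test are shown, because these genes did not move one way. They come from RefSeq (GRCm38.p6) and run 5′ to 3′ on the strand of the gene. Windows were read for 4 of the 6 PDGF genes. Capitals mark a GC box (GGGCGG, or CCGCCC on the other strand) or a CACCC-type box (CCACCC, or GGGTGG on the other strand). Both are motif types that Krüppel-like factors are known to bind.
Pdgfa first window, chr5:138994282-138994531, minus strand: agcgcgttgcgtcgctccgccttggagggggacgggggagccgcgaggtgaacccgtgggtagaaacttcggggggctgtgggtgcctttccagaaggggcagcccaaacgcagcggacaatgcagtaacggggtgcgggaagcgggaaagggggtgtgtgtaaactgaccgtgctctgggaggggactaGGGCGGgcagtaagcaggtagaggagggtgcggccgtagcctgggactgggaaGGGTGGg
Pdgfa second window, chr5:138994945-138995194, minus strand: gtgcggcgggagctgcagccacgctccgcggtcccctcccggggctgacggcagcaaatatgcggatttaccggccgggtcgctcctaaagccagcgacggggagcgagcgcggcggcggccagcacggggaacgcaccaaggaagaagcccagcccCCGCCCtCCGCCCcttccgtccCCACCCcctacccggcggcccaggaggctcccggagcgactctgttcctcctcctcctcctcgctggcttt
Pdgfc, chr3:81036166-81036415, plus strand: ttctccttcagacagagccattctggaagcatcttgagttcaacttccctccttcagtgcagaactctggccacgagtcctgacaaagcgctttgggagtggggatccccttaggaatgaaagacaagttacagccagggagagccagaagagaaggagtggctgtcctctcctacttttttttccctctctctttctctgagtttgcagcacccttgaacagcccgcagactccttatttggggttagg
Pdgfra, chr5:75152001-75152250, plus strand: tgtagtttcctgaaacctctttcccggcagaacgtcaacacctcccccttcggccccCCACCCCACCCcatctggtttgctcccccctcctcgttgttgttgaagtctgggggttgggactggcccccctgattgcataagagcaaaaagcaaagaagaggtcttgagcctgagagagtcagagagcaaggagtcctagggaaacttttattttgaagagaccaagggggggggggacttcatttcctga
The Pdgfa windows hold 1 and 2 GC boxes and 1 CACCC-type box each, and 66.4% and 72.4% of their bases are G or C. The Pdgfc window holds 0 of either motif as spelled above, at 50.8% G or C. It does hold the shorter run CACCC, which was not searched for in any window. The Pdgfra window holds 0 GC boxes and 2 CACCC-type boxes, which overlap by 1 base, at 54.4%. The Pdgfd window, not shown, holds 0 of either motif. Over 32851 windows of the same length, 32.7% held a GC box, 28.1% a CACCC-type box and 48.8% at least 1 of them, and the median share of G and C was 52.4%. A match describes the letters of the window and is no measured binding site.

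Arrays give log2 signals, and levels of different probe sets cannot be set against each other, so each gene was compared only with itself between groups. Klf5 read 10.24, 10.49 and 10.34 in the Klf5-deleted arrays, against 11.55, 11.74 and 11.77 in the controls, 39.8% of the control signal (log2 fold change -1.33, SE 0.08, adjusted p = 9.62e-05 with limma). No source used here gives the exons that the deletion removes. The pools also differed in sex. Xist, made from the inactive X chromosome of female cells, read 5.89, 6.34 and 6.47 in the Klf5-deleted arrays, against 12.61, 12.14 and 11.93 in control replicates 1 to 3. The male share of each pool, estimated from 3 Y-linked genes, was 102.93%, 102.04% and 95.02% in the Klf5-deleted pools and 0%, 47.1% and 40.8% in control pools 1 to 3, on a scale where the lowest array is 0% and the mean Klf5-deleted pool is 100%. The labels do not say whether the pools came from separate litters, so the p values reflect only the variation among these pools.

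Among the 6 PDGF genes, Pdgfc and Pdgfra rose and Pdgfa fell in the Klf5-deleted intestine, and Pdgfb, Pdgfd and Pdgfrb did not pass the test. The test was limma's moderated test over all genes, with Benjamini-Hochberg adjustment and a threshold of 0.05. It called 3 of 6 members, where 17.5% of all genes were called. The 2 rises stand beside 8.95% of all genes called higher, and the 1 fall beside 8.58% called lower. The Klf5-deleted and control arrays did not overlap for 5 of 6 members, against 36.0% of all genes. With so few members these shares are descriptions. The shares of 8.95% and 8.58% also stand beside each count of a list given below. All 3 calls were kept when any of the 6 arrays was left out. All 3 were lost when the male share of the pool was a covariate, a fit whose SE was at the median 2.63 times as large, and in which 83 genes passed against 3496. Their log2 fold changes in that fit were -0.33 for Pdgfa, 0.70 for Pdgfc and 0.26 for Pdgfra. Xist, at -5.99 without the covariate, was still at -5.04 in that fit. With the replicate number as a block instead, Pdgfa and Pdgfc kept their calls and Pdgfra did not.

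**Figure D1:**
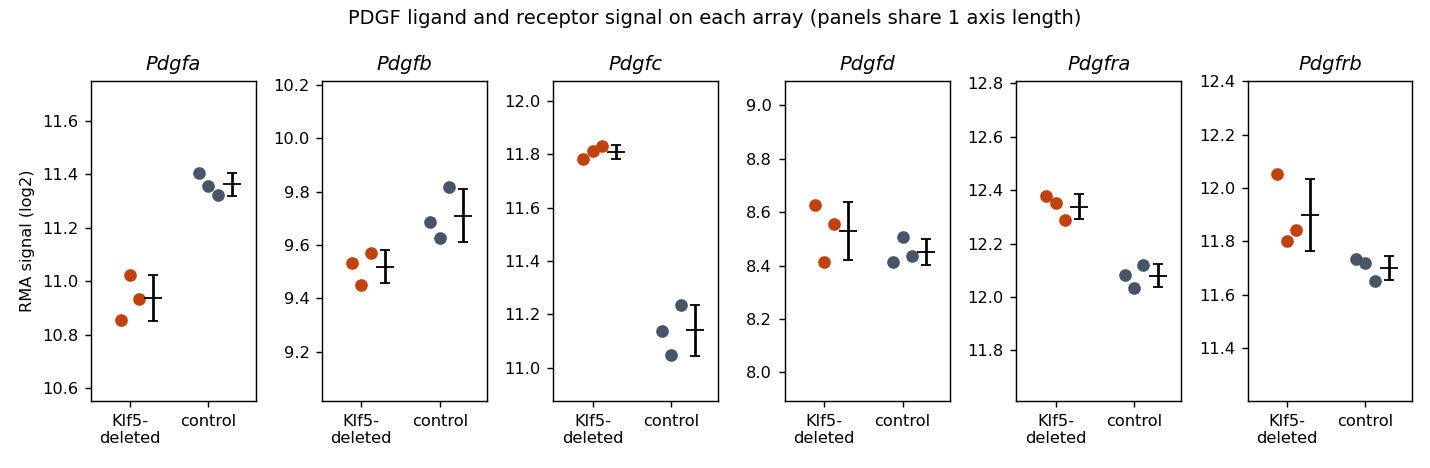
Log2 signal of each PDGF gene on each array, Klf5-deleted arrays (orange) left of control arrays (grey), with the mean and SD of each group as a black bar (n = 3 arrays each). Pdgfa and Pdgfb lie lower and Pdgfc, Pdgfra and Pdgfrb higher in every Klf5-deleted array, and the groups overlap for Pdgfd, although Pdgfb, Pdgfd and Pdgfrb did not pass the test.

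Pdgfa encodes the A chain, a ligand of receptor alpha. It read 10.86, 11.02 and 10.93 in the Klf5-deleted arrays, against 11.41, 11.36 and 11.32 in the controls. Every Klf5-deleted array lay below every control array, and the control pool with no Y-linked signal was the highest of the 3 controls. The means were 10.94 ± 0.08 and 11.36 ± 0.04 (SD, n = 3 each). Pdgfa fell to 74.5% of the control signal, a log2 fold change of -0.42 (SE 0.06, 95% interval -0.56 to -0.29, adjusted p = 0.00260 with limma). Of all genes, 6.18% had a larger change in either direction.

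Markers of the epithelium, in which Pdgfa is known to be made, were lower as well. All 16 epithelial markers measured fell, with a median log2 fold change of -0.88 and a range of -3.28 to -0.36, while the median over all genes was 0.02. Their summed linear signal was between 20894 and 24828 in Klf5-deleted arrays, against 43608 to 44746 in control arrays. Krt19, a keratin of simple epithelia, fell by 1.52 (SE 0.08) and Epcam, an epithelial adhesion gene, fell by 0.61 (SE 0.07). The change of Pdgfa was smaller than that of 15 of these 16 markers, Krt18 (-0.36, SE 0.05) being the exception. Taken within each array, Pdgfa minus the mean of the 16 markers was 0.62 higher in the Klf5-deleted arrays on the log2 scale. The groups did not overlap. That mean includes Elf3, which had the largest fall of the list (-3.28, SE 0.11) and adds to this difference. The part of the epithelial markers in the fall of Pdgfa was not tested. In bulk tissue, fewer cells of a type and less RNA per cell cannot be told apart.

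Pdgfc encodes the C chain, a ligand of receptor alpha that is secreted with a domain that must be cut off before it can signal. It read 11.78, 11.81 and 11.83 in the Klf5-deleted arrays, against 11.14, 11.05 and 11.24 in the controls. The 3 Klf5-deleted arrays lay close together and well above every control, and the control pool with no Y-linked signal lay between the other two controls. The means were 11.81 ± 0.02 and 11.14 ± 0.09 (SD, n = 3 each). Pdgfc rose 1.59-fold, with a log2 fold change of 0.67 (SE 0.06, 95% interval 0.53 to 0.80, adjusted p = 0.000350 with limma). It was the largest change of the family, and 2.78% of all genes had a larger one.

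Both ligands of receptor alpha that passed thus moved in opposite directions in the same arrays. The log2 signal of Pdgfc minus that of Pdgfa was 1.09 higher in the Klf5-deleted arrays than in the controls, with an SD over 3 arrays of 0.07 in the Klf5-deleted group and 0.12 in the control group. This within-array difference does not depend on a shift common to all genes of an array. Both genes were examined because of earlier results on these arrays, so no test is attached to it.

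**Figure D2:**
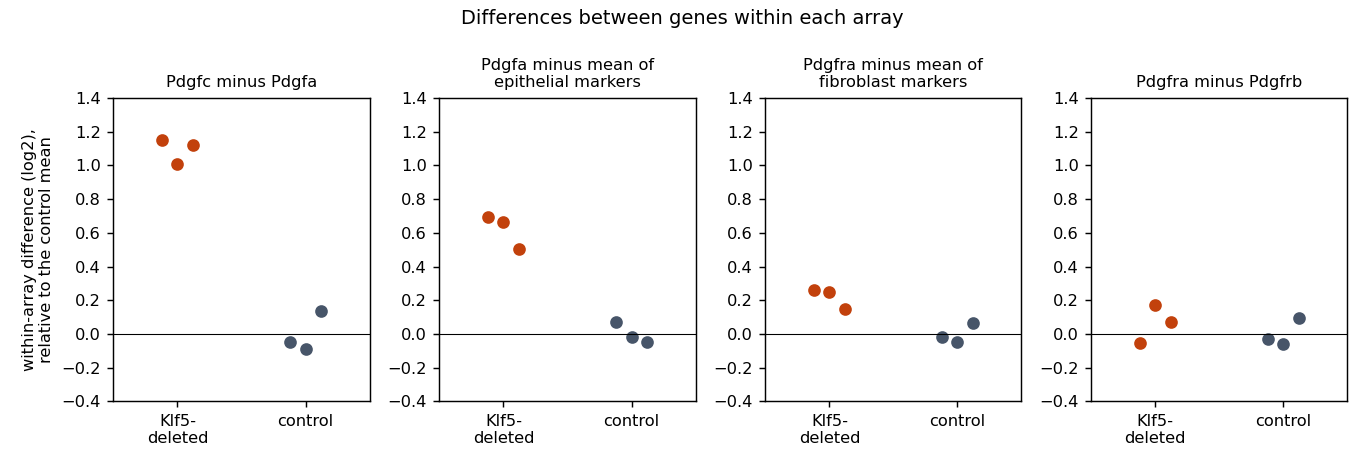
Differences between log2 signals within each array, set to 0 at the control mean, for Klf5-deleted (orange, left) and control arrays (grey, right). Pdgfc against Pdgfa (1.09), Pdgfa against the mean of epithelial markers (0.62) and Pdgfra against the mean of fibroblast markers (0.22) are higher in every Klf5-deleted array, and Pdgfra against Pdgfrb (0.06) overlaps between groups.

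Pdgfb encodes the B chain, a ligand of both receptors. It read 9.53, 9.45 and 9.57 in the Klf5-deleted arrays, against 9.69, 9.63 and 9.82 in the controls. The groups did not overlap, but the gap between the highest Klf5-deleted array and the lowest control was small. The log2 fold change was -0.19 (SE 0.06, 95% interval -0.34 to -0.04). The interval, which is not adjusted for the number of genes, left out 0, but limma's adjusted p was 0.0801. It passed with the lowest 50% of genes left out (adjusted p = 0.0383). Endothelial cells are a known source of PDGF-B. Of 14 endothelial markers, 0 passed limma's test in either direction, 1 had an unadjusted p under 0.05, and the median log2 fold change was 0.06. The groups overlapped in their summed signal (17199 to 21177 in Klf5-deleted arrays, against 17668 to 18643 in control arrays). Pecam1 and Cdh5, which mark endothelium, were at 0.05 (SE 0.06) and 0.13 (SE 0.08). Relative to the mean of the 14 endothelial markers within each array, Pdgfb was 0.27 lower in the Klf5-deleted arrays. The groups did not overlap in this difference.

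Pdgfd encodes the D chain, a ligand of receptor beta that also needs cleavage. It read 8.63, 8.41 and 8.56 in the Klf5-deleted arrays, against 8.41, 8.51 and 8.44 in the controls. The groups overlapped. The log2 fold change was 0.08 (SE 0.06, adjusted p = 0.478 with limma), and its 95% interval of -0.07 to 0.23 leaves room for a rise of up to 0.23 or a fall of up to 0.07. With the male share in the fit its sign turned (-0.02, adjusted p = 0.974).

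Pdgfra encodes receptor alpha. It read 12.38, 12.35 and 12.29 in the Klf5-deleted arrays, against 12.08, 12.03 and 12.12 in the controls. All Klf5-deleted arrays lay above all controls, and the control pool with no Y-linked signal was in the middle of its group. Pdgfra rose to 119.8% of the control signal, with a log2 fold change of 0.26 (SE 0.05, 95% interval 0.15 to 0.37, adjusted p = 0.0100 with limma). The rise was modest, and 67.0% of all called genes had a larger change. With the replicate block Pdgfra did not pass (adjusted p = 0.0545 with limma).

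Fibroblast markers, which mark the mesenchyme that carries receptor alpha, changed less. Of 15 measured, 2 rose and 0 fell, with a median log2 fold change of 0.05 and summed signals of 57856 to 60676 in Klf5-deleted arrays, against 55037 to 56474 in control arrays. Fn1, the fibronectin gene, rose by 0.29 (SE 0.05), and Vim, an intermediate filament gene of mesenchyme, was at 0.14 (SE 0.04, adjusted p = 0.0718 with limma). In 5 of the 6 fits that left out an array, all but the one without Klf5-deleted replicate 2, 1 of the 15 rose. Relative to the mean of these 15 genes within each array, Pdgfra was 0.22 higher and Pdgfc 0.63 higher in the Klf5-deleted arrays, with no overlap between groups in either.

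Pdgfrb encodes receptor beta, which is carried by pericytes and other mesenchymal cells. It read 12.05, 11.80 and 11.84 in the Klf5-deleted arrays, against 11.74, 11.72 and 11.65 in the controls. The groups did not overlap, and Klf5-deleted replicate 1 stood above the other two. The log2 fold change was 0.20 (SE 0.07, 95% interval 0.03 to 0.37). Here too the unadjusted interval left out 0, and limma's adjusted p was 0.110. Without Klf5-deleted replicate 1 it was 0.12 (adjusted p = 0.190). Of 10 pericyte markers 1 rose and 0 fell, with a median of 0.20 and summed signals of 12962 to 14424 in Klf5-deleted arrays, against 11792 to 12484 in control arrays. The marker that rose was the receptor gene Notch3 (0.39, SE 0.08, adjusted p = 0.0176), and it did not pass without control replicate 2 (0.40, adjusted p = 0.0541). Notch3 was at 0.08 (SE 0.18, adjusted p = 0.877 with limma) once the male share was a covariate. The markers with the next smallest p values were the proteoglycan gene Cspg4 (0.19, SE 0.06), Ndufa4l2 (-0.27, SE 0.08) and the potassium channel subunit gene Abcc9 (0.20, SE 0.06), and these 3 did not pass. Ndufa4l2 was lower in every Klf5-deleted array than in any control, and the other two were higher. Ndufa4l2 was past the threshold without Klf5-deleted replicate 1 (adjusted p = 0.0327). Relative to the mean of the pericyte markers within each array, Pdgfrb differed by 0.03 and the groups overlapped. That mean includes Vtn, which had the largest change of the list (0.54, SE 0.21) without passing and makes this difference smaller. Ndufa4l2, with the largest fall of the list, makes it larger. Relative to the mean of the fibroblast markers, Pdgfrb was 0.16 higher in the Klf5-deleted arrays, and the groups did not overlap. The part of the pericyte markers in the values of Pdgfrb was not tested.

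The difference between the receptors was small. Pdgfra minus Pdgfrb within each array was 0.06 higher in the Klf5-deleted arrays, and the groups overlapped. That Pdgfra passed and Pdgfrb did not therefore shows no difference between the receptors.

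The receptors belong to a wider family of receptor tyrosine kinases, whose other members were read for comparison. Of 6 related receptor genes, 1 rose and 0 fell. Kit, the receptor for stem cell factor and a marker of interstitial cells of Cajal, read 11.09, 10.98 and 11.02 in the Klf5-deleted arrays, against 10.60, 10.47 and 10.52 in the controls. It rose by 0.50 (SE 0.05, adjusted p = 0.00109 with limma). With it rose Ano1 (0.37, SE 0.06) and Etv1 (0.33, SE 0.05), 2 further genes of the 5 read as markers of these pacemaker cells. The receptors of vascular endothelial growth factors, Kdr (0.21, SE 0.07), Flt4 (0.19, SE 0.07) and Flt1 (0.06, SE 0.06), did not pass, nor did the macrophage receptor gene Csf1r (-0.10, SE 0.09) or Flt3 (0.06, SE 0.06). In RefSeq, Pdgfra, Kit and Kdr follow each other on chromosome 5. The genes on either side of them, Gsx2 (0.05, SE 0.06) and Srd5a3 (-0.08, SE 0.06), did not pass.

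Of 9 related ligand genes, 0 passed limma's test in either direction and 2 had an unadjusted p under 0.05. The log2 fold changes ranged from -0.18 to 0.30. The placental growth factor gene Pgf was at 0.30 (SE 0.09, adjusted p = 0.0636), the Kit ligand gene Kitl at -0.18 (SE 0.08) and Vegfa at -0.04 (SE 0.07). Pgf was past the threshold with the lowest 50% of genes left out (adjusted p = 0.0329) and with an intensity trend and robust variance (adjusted p = 0.0352).

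**Figure D3:**
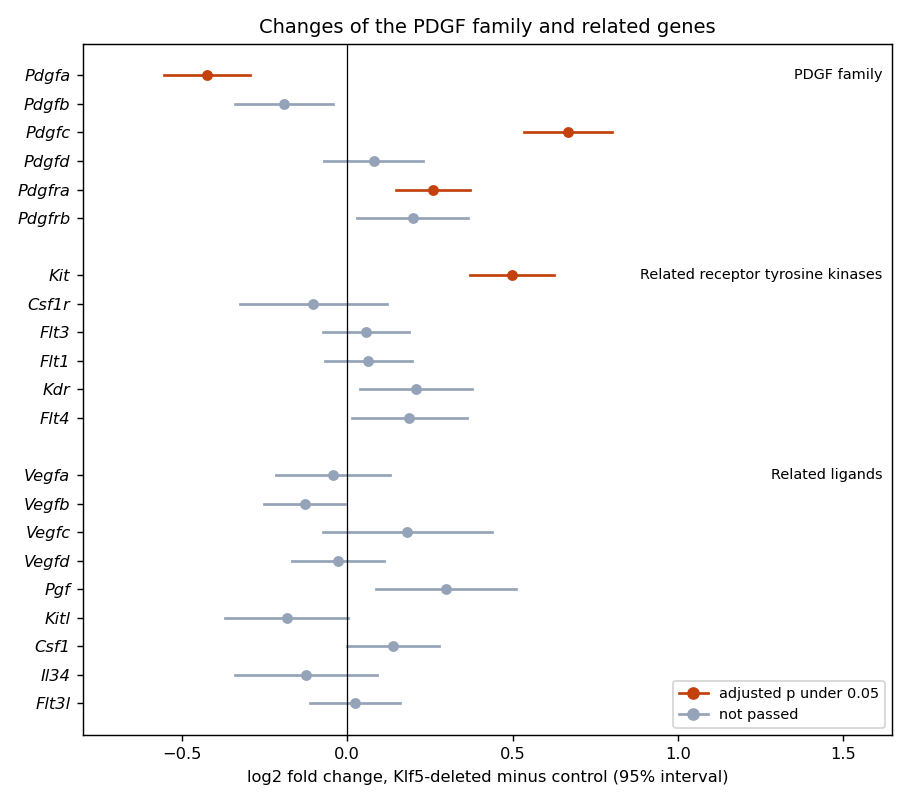
Log2 fold change of each gene, Klf5-deleted minus control, with its 95% interval from limma (not adjusted for the number of genes), for the PDGF family, related receptor tyrosine kinases and related ligands. Genes past an adjusted p of 0.05 are orange: Pdgfa lies below 0, and Pdgfc, Pdgfra and Kit lie above it.

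Genes that mature, bind or help present PDGF ligands moved in both directions. Of 16 measured, 4 rose and 4 fell, with a median of 0.06. Pcsk5, a proprotein convertase able to process PDGF precursors, read 8.78, 8.81 and 8.88 in the Klf5-deleted arrays, against 9.87, 9.82 and 9.75 in the controls, and fell by 0.99 (SE 0.05, adjusted p = 4.81e-05 with limma). St14, which encodes the epithelial protease matriptase, an activator of PDGF-D, fell by 0.79 (SE 0.09). Furin, the widely used convertase, was at 0.04 (SE 0.05). The plasminogen activator genes Plat, whose product activates PDGF-C, and Plau, whose product activates PDGF-D, were at 0.34 (SE 0.11, adjusted p = 0.0834) and 0.31 (SE 0.11, adjusted p = 0.0996). Plau passed without Klf5-deleted replicate 2 (adjusted p = 0.0492).

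Co-receptor genes of this list rose. Nrp1, a co-receptor of PDGF and other growth factors, read 11.46, 11.13 and 11.11 in the Klf5-deleted arrays, against 10.74, 10.70 and 10.68 in the controls, and rose by 0.53 (SE 0.09, adjusted p = 0.00894 with limma). Its paralog Nrp2 rose by 0.38 (SE 0.06). Lrp1, an endocytic receptor that binds receptor beta, rose by 0.30 (SE 0.06, adjusted p = 0.0155), and did not pass without control replicate 3 (0.29, adjusted p = 0.0584). It was at 0.06 (SE 0.14, adjusted p = 0.858 with limma) once the male share was a covariate. The receptor-like gene Pdgfrl was at 0.30 with an adjusted p of 0.0498, and passed in 1 of the 6 fits that left out an array. Slc9a3r1, a scaffold that binds PDGF receptors, and Ptprj, a phosphatase of receptor beta, were at -0.21 (SE 0.05) each, and kept their calls in 3 and 2 of those 6 fits. With the male share as covariate Pdgfrl was at 0.51 (SE 0.21), Slc9a3r1 at -0.17 (SE 0.13) and Ptprj at -0.34 (SE 0.12). Leaving out control replicate 3, 2 genes of the list rose and 2 fell.

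Of 38 genes of receptor signalling, which act downstream of the receptors, 31 were measured. Of these, 2 rose and 0 fell, where 8.95% of all genes were called higher and 8.58% lower. The median was 0.02, that of all genes. Plcg1, the phospholipase recruited by activated PDGF receptors, rose by 0.31 (SE 0.05, adjusted p = 0.00616 with limma). The adaptor gene Gab1 rose by 0.26 (SE 0.05, adjusted p = 0.0151), and did not pass without control replicate 2 (0.26, adjusted p = 0.0533), which left 1 gene of the list higher. Pik3r1 (-0.08, SE 0.06), Ptpn11 (0.07, SE 0.05), Src (0.01, SE 0.04) and Grb2 (0.09, SE 0.05), which encode proteins that bind the active receptors or their adaptors, did not pass. Gene levels do not report the activity of these proteins.

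Of 22 genes known to respond within hours to growth factors, 3 rose and 4 fell, with a median of 0.07. Spry2 and Dusp6, feedback inhibitors of the pathway from receptors to ERK, rose by 0.50 (SE 0.05) and 0.28 (SE 0.06), and Dusp6 did not pass without control replicate 3 (0.25, adjusted p = 0.0579 with limma). Myc and the AP-1 gene Fosl2 fell by 0.83 (SE 0.05) and 0.51 (SE 0.05). Fos (-0.01, SE 0.14) and Egr1 (-0.08, SE 0.05) did not pass. Only 2 genes fell on leaving out Klf5-deleted replicate 2, control replicate 2 or control replicate 3, and only 1 rose without control replicate 3.

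Genes of the clustering mesenchyme, in which receptor alpha is known to act, were mostly higher. Of 19 measured, 11 rose and 1 fell, with a median of 0.21, and these genes had been seen to move before this list was drawn up. Hhip, a Hedgehog target that binds its ligands, rose by 0.64 (SE 0.06), Twist2 by 0.44 (SE 0.06) and Gli3 by 0.37 (SE 0.06). Gli1 and Foxf1, targets of Hedgehog signals in gut mesenchyme, rose by 0.25 each (SE 0.05). The Hedgehog ligand gene Shh, whose locus carries Cre in the controls, fell by 0.23 (SE 0.06, adjusted p = 0.0344 with limma), and did not pass in any fit that left out an array (adjusted p = 0.0511 to 0.0946). The member that fell was Bmp2 (-1.35, SE 0.13, adjusted p = 0.000612 with limma), a ligand gene. Bmp4 (-0.15, SE 0.07) and Foxl1 (-0.06, SE 0.05), which mark the cells beneath the epithelium, did not pass. On leaving out Klf5-deleted replicate 1 or 3 the count of rises was 7, and on leaving out control replicate 1 or 2 it was 6. With the replicate block the count was 5, and Gli1 did not pass (adjusted p = 0.0570 with limma).

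**Figure D4:**
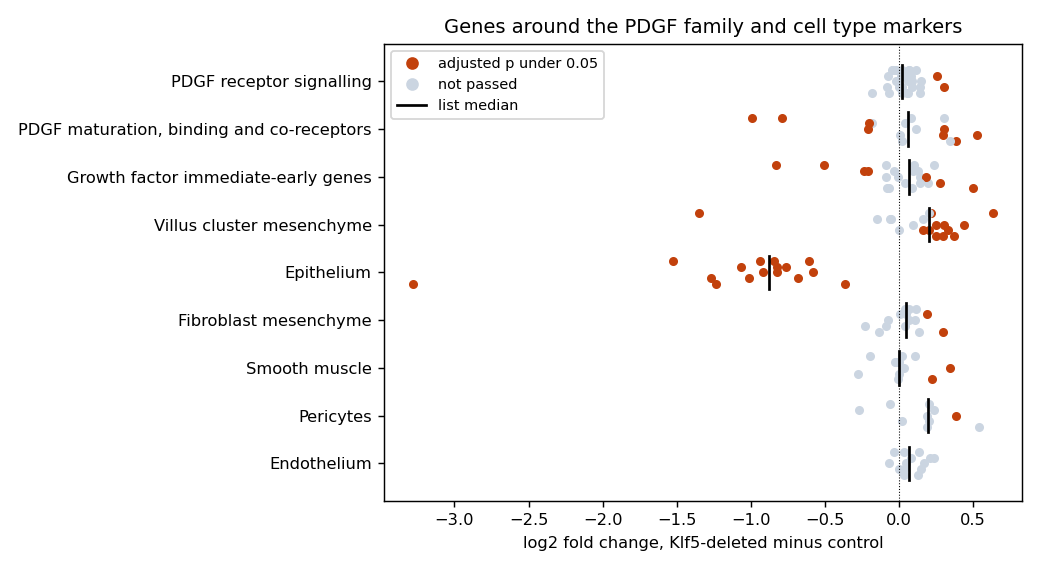
Log2 fold change of every measured gene of 9 lists, Klf5-deleted minus control, with genes past an adjusted p of 0.05 in orange and the list median as a black line. All 16 epithelial markers lie below 0, 11 of 19 genes of the cluster mesenchyme rose, and 29 of 31 receptor signalling genes did not pass.

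The genes whose profile over the 6 arrays lay nearest to a called member were found by the distance between log2 values, each gene centred on its own mean. Nearest to Pdgfa were Inava (distance 0.05), Fam234b (0.05) and Sdc4 (0.06), a cell surface proteoglycan gene. Their log2 fold changes were -0.42 (SE 0.05), -0.40 (SE 0.06) and -0.40 (SE 0.06). Nearest to Pdgfc were the parathyroid hormone receptor gene Pth1r (0.10), Pwwp3b (0.12) and the protocadherin gene Pcdh11x (0.13), at 0.59 (SE 0.06), 0.69 (SE 0.04) and 0.59 (SE 0.06). Nearest to Pdgfra were Cnp (0.03), Cep78 (0.04) and the deacetylase gene Hdac6 (0.04), at 0.27 (SE 0.04), 0.28 (SE 0.05) and 0.29 (SE 0.05). Of these 9 genes, 3 lie on the X chromosome in RefSeq (Pwwp3b, Pcdh11x and Hdac6), and the pools differed in sex as given above. The share of all genes on that chromosome was not counted. With the male share as covariate these 3 genes were at 0.66, 0.67 and 0.32. They did not pass there (adjusted p = 0.0993, 0.166 and 0.353 with limma). The part of sex in these profiles was not tested.

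**Figure D5:**
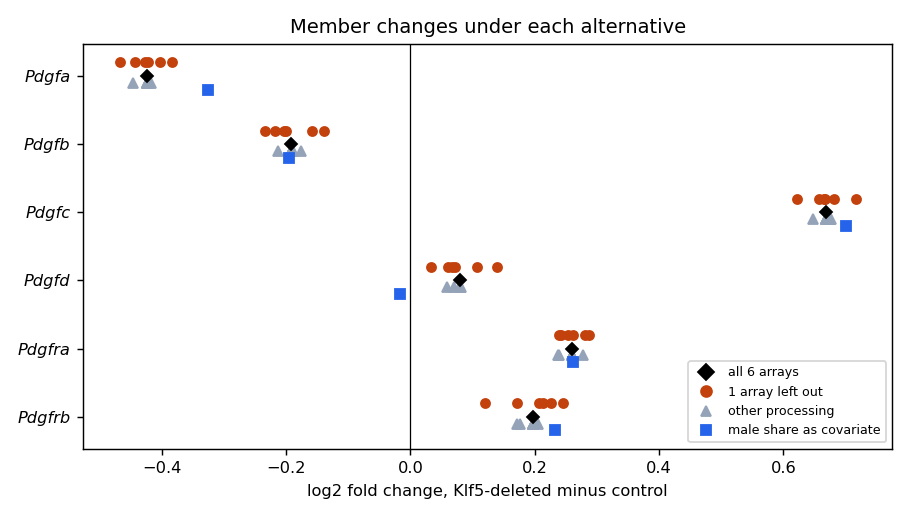
Log2 fold change of each PDGF gene, Klf5-deleted minus control, with all 6 arrays (black), with 1 array left out (orange), under other processing (grey) and with the male share as covariate (blue). Pdgfa stays between -0.47 and -0.33, Pdgfc between 0.62 and 0.72 and Pdgfra between 0.24 and 0.29, and the covariate turns the sign of Pdgfd alone.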

How the data were processed

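RNA was measured on Affymetrix Mouse Gene ST arrays. The deposited log2 signals ranged from 3.51 to 14.3. Per the submitters' processing notes, the authors used RMA and Affymetrix Expression Console 1.1. RMA as a method equalises the distributions of arrays, which takes away any change shared by most genes. No source used here names the build of the array's annotation. Arrays have no read depth, and the number of arrays limits precision.

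Groups and replicate numbers came from sample titles. Of 35557 rows, 21789 had 1 gene symbol in the platform table. Gene IDs served to bring symbols up to date in RefSeq, and the brightest row per gene was kept, giving 19938 genes with no filter on level. The comparison, Klf5-deleted minus control, used lmFit and eBayes of limma 3.58.1 (R 4.3.3) with Benjamini-Hochberg adjustment over all genes. The pipeline was tested on simulated data. Exact two-sided permutation over 3 arrays against 3 cannot go below p = 0.1, which Klf5 and each PDGF gene except Pdgfd (p = 0.4) reached.

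The members, lists, naming rule and 16 alternatives were chosen with earlier results of these data known. Named were Klf5, the 6 members, the 3 nearest genes to each called member, genes of the related receptor and ligand lists, and up to 4 genes per list with the smallest p. Other genes were chosen after their values were seen: those named in the maturation list beyond Pcsk5, St14, Nrp1 and Nrp2, in the signalling list beyond Plcg1 and Gab1, Fos, Egr1, Gli1, Foxf1, Bmp4, Foxl1, Cdh5, Epcam, Krt18, Shh, Pecam1, Vtn, Gsx2 and Srd5a3. The 16 lists held 218 distinct genes, of which 206 were measured, and the rest were not analysed here. The lists not described in the text gave 2 higher and 0 lower of 12 smooth muscle genes, 2 and 0 of 10 enteric neuron and glia genes, 7 and 2 of 9 mesothelial genes and 0 and 1 of 12 leukocyte genes. The log2 fold changes of the mesothelial genes ranged from -1.52 to 1.05, with a median of 0.50. The gene at -1.52 was Krt19, which is also on the epithelial list and is counted in both. Protein sequences were not used here.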

Additional observations from a re-analysis of the deposited data

How the results depend on the processing

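Pdgfa, Pdgfc and Pdgfra kept their direction in all 16 alternatives, and so did Pdgfb and Pdgfrb. Leaving out 1 array at a time gave log2 fold changes of -0.47 to -0.38 for Pdgfa, -0.23 to -0.14 for Pdgfb, 0.62 to 0.72 for Pdgfc, 0.03 to 0.14 for Pdgfd, 0.24 to 0.29 for Pdgfra, 0.12 to 0.25 for Pdgfrb and -1.40 to -1.27 for Klf5, and kept every call of these genes. Over the same fits, signs turned for Fos (-0.15 to 0.13), Csf1r (-0.18 to 0.0091), Src (-0.0049 to 0.029), Gsx2 (-0.0014 to 0.088) and Vegfa (-0.12 to 0.0062), none of which had passed. The count of all genes called was 2000 to 2757 in those fits, 2000 being without control replicate 2. With the male share as covariate Pdgfa (-0.33, adjusted p = 0.378), Pdgfc (0.70, adjusted p = 0.158) and Pdgfra (0.26, adjusted p = 0.410) did not pass, Pdgfd changed sign (-0.016), 83 genes were called, and 0 members were higher and 0 lower. Klf5 still passed there (-1.64, adjusted p = 0.0330), as did 1 epithelial marker, 2 sex-linked genes and 0 genes of the other lists described. Named genes that had passed and moved by over 1.5 times there were Notch3 (0.08), Lrp1 (0.06), Etv1 (0.19), Fn1 (0.16), Hhip (0.41), Pdgfrl (0.51) and Ptprj (-0.34). Among genes that had not passed, Fos (0.40), Foxl1 (0.15), Furin (-0.048), Ptpn11 (-0.082) and Vegfa (0.047) turned sign there, Src did with arrays centred on the median (-0.0084) and Fos with array weights (0.018). That fit separates sex and genotype only through the spread of the control pools, since no Klf5-deleted pool was mostly female. With the lowest 50% of genes left out, Pdgfd was not tested, Pdgfb was past the threshold (-0.19, adjusted p = 0.0383) and 2 members were lower. Vim, Cspg4 and Plat, which did not pass over all genes, also passed under that filter. Vim and Cspg4 passed too with the lowest 25% left out (adjusted p = 0.0483 and 0.0428) and with an intensity trend and robust variance (0.00779 and 0.0364), and Cspg4 with quantile normalization (0.0477). Abcc9 passed under the 50% filter (0.0317), with trend and robust variance (0.0291) and with array weights (0.0465), and Ndufa4l2 with array weights (0.0275). The replicate block apart, every other alternative kept the calls of the members. The cause of these changes was not tested, beyond the larger SE of the covariate fit and the fewer genes tested under the filter. Deviations of same-numbered arrays from group means correlated at -0.14, -0.27 and -0.03 across genes. With 3 a group, this cannot exclude pairing by number. With the replicate block, 2008 genes were called, Pdgfra did not pass (0.26, adjusted p = 0.0545) and 1 member was higher. Of the cluster mesenchyme genes 5 were higher there, Gli1 (adjusted p = 0.0570) not among them. Of the pericyte markers 0 were higher, Notch3 included (adjusted p = 0.0674), and 1, Ndufa4l2, was lower (adjusted p = 0.0482). Fn1, Gab1, Shh, Ptprj and Slc9a3r1 did not pass under the block, and Pgf did (adjusted p = 0.0459). A change of 0.2 on the log2 scale lies near what 3 arrays a group resolved for these genes, as the SE of 0.05 to 0.07 shows.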
